A study of Mus musculus with 6 samples.

Results

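The genes described here are 10 members of the oxygen-sensing pathway: the transcription factor gene Hif1a, the control genes Egln1, Egln3 and Vhl, and the target genes Ndrg1, Bnip3, Bnip3l, Vegfa, P4ha1 and Ankrd37. They were chosen with earlier results of these data known, and all 10 were found by symbol among the 25124 genes of the deposited expression table. The libraries came from RAW264.7 cells, an established mouse macrophage-like line, in a control version that had taken up a plasmid for the Cas9 nuclease with no guide RNA, made for comparison with an E4BP4 knockout line. All cells grew in medium with 25 mM glucose and 10% fetal bovine serum at 37 °C under 5% CO2 and were used at fewer than 15 passages. Cells without cytokine are called M0 and cells given IL-4 at 10 ng/ml are called M2, with 3 libraries each. The sources used here give no oxygen level. The titles of all M0 libraries carry a re-analysis tag and those of the M2 libraries do not, so whatever lies behind the tag and IL-4 cannot be told apart.

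Hypoxia-inducible factor is a pair of an oxygen-labile alpha subunit, HIF-1alpha or HIF-2alpha, and the stable beta subunit ARNT. In oxygen, the EGLN (PHD) enzymes hydroxylate prolines of the alpha subunit, and the VHL ubiquitin ligase then marks it for destruction. In low oxygen the alpha subunit persists, enters the nucleus and switches on genes of glycolysis, mitophagy, vessel growth and collagen maturation. Much of this control acts on the protein, which these data do not measure. Egln1 and Egln3 are themselves known HIF targets, so they belong both to the control machinery and to the response.

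Most of the HIF targets were lower in M2 cells, while the transcripts of the control machinery went in different directions. TPM is a transcript abundance scaled for length and depth, and differences were tested with limma on log2(TPM + 1), for which 8 of the 10 genes were abundant enough. Of these, 5 fell (Ndrg1, Bnip3, Ankrd37, P4ha1 and Egln1, adjusted p from 1.28e-06 to 5.19e-04) and 1 rose (Vhl, adjusted p = 0.00994). Among all 11202 genes tested, 23.7% were called lower and 20.1% higher in M2, and 43.7% in either direction. Hif1a and Bnip3l did not pass, and Egln3 and Vegfa were near the limit of detection. In all 8 tested genes the M0 and M2 libraries did not overlap, with 7 lower and 1 higher in M2. Over all tested genes 30.8% were lower and 25.1% higher without overlap, 55.9% together. In bulk libraries such as these, fewer cells with a transcript and less of it per cell cannot be told apart.

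Promoters of the 4 members that fell and have a window are shown, with the short core sequence that HIF binds, ACGTG or GCGTG, marked in them. Each is the 250 bases before the RefSeq transcript start on GRCm38.p6, which is also the start of the authors' model, read 5′ to 3′ on the gene's strand. Capitals mark every core on either strand, so a core on the opposite strand reads CACGT or CACGC. Windows were found for 8 of the 10 genes, with none for Ndrg1 and Bnip3l. That of Vhl, the member that rose, is shown beside the others.
Bnip3, chr7:138909507-138909756, minus strand: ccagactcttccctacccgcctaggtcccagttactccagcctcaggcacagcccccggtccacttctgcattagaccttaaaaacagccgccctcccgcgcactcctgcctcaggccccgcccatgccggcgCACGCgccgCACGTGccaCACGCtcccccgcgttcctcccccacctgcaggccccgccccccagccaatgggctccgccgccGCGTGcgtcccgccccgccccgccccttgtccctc
Ankrd37, chr8:45999851-46000100, minus strand: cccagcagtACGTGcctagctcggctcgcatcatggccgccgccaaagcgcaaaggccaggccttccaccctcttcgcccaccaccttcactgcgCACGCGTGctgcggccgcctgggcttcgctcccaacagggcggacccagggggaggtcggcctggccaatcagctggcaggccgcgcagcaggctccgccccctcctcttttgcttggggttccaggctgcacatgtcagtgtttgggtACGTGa
P4ha1, chr10:59323046-59323295, plus strand: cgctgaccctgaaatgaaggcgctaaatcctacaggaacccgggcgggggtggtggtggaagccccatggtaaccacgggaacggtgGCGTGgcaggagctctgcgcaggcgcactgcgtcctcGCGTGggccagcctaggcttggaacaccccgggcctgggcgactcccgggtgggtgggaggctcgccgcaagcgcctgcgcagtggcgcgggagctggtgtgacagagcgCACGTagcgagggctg
Egln1, chr8:124949255-124949504, minus strand: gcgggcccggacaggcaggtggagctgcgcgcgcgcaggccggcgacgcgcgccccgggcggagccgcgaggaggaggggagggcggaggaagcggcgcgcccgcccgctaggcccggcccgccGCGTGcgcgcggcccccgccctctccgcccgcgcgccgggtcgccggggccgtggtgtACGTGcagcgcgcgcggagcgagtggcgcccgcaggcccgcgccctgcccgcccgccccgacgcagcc
Vhl, chr6:113623744-113623993, plus strand: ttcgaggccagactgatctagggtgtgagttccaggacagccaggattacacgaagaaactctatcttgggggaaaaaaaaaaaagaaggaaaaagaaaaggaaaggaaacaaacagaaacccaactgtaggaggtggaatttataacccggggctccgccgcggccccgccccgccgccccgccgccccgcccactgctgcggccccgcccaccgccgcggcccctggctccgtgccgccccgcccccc
The Bnip3 window held 5 cores, counting both strands of the palindrome CACGTG, which is also an E-box. Its core nearest the start began 35 bases upstream. The windows of Ankrd37, P4ha1 and Egln1 held 4, 3 and 2 cores, the nearest of them 6, 16 and 68 bases upstream, and the Vhl window held 0. The window of Hif1a, which did not pass, lay 6543 bases from its model's start and held 3, that of Egln3 held 1, and Vegfa had 0 at the start of its model and 2 at another start. In all, 7 of the 8 genes with a window had a core in one, over 9 windows. Vegfa counts there only through its other start, 7214 bases from that of its model. The shares that follow count windows and not genes. Such short matches are common: 38.6% of 32851 RefSeq windows of this length held at least 1 core and 16.7% held 2 or more. Among windows with at least 60% G and C, as all 5 printed here have, the shares were 63.8% and 33.5%. A match describes the letters and shows no binding.

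Depth was between 15615639 and 19511192 reads per library, as worked back from TPM. All 12 listed macrophage markers were above the expression filter, led by Lyz2 (lysozyme, 907 to 1159 TPM over the 6 libraries). Of the 12, 3 rose, 5 fell and 4 did not pass. These are 25% higher and 41.7% lower, beside 20.1% and 23.7% of all tested genes. Those that rose were Adgre1 (mean 2.73 TPM in M0 and 6.10 TPM in M2), Mertk (9.67 and 19.8 TPM) and Fcgr1 (40.2 and 48.0 TPM). Among those that fell was Cd14, from 644, 634 and 634 TPM in M0 to 313, 303 and 316 in M2. The number that fell was 3 without M0 replicate 1, 3 without M0 replicate 2 and 2 with no filter. The summed level of the 12 markers ran from 3877 to 4177 TPM in M0 against 3185 to 3321 TPM in M2. The part of this in the results below was not tested. No listed marker of fibroblasts (7), lymphocytes (8) or endothelial and epithelial cells (7) passed the filter, with summed levels of at most 1.08, 0.360 and 0.783 TPM in any library, and Pdgfrb, Cd8a and Krt8 were at 0 in every library. Of 8 genes known to respond to IL-4, 6 were tested and all 6 rose, beside 20.1% of all tested genes. Among them was Socs1 (0.889 to 1.25 TPM in M0 and 44.0 to 48.9 TPM in M2). The 2 below the filter, Retnla and Chil3, were all but undetected. Retnla had 1 read in all of M0 and 2 in all of M2, and Chil3 had 0 and 5. A trend with transcript length was strongest in M2 replicate 3, with a slope of -0.08 log2 units per doubling of length against its group. The slope was 0.02 and 0.06 in M2 replicates 1 and 2, and -0.03, 0.03 and -0.002 in M0 replicates 1, 2 and 3. Values without M2 replicate 3 are given for several genes but not for all.

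**Figure D1:**
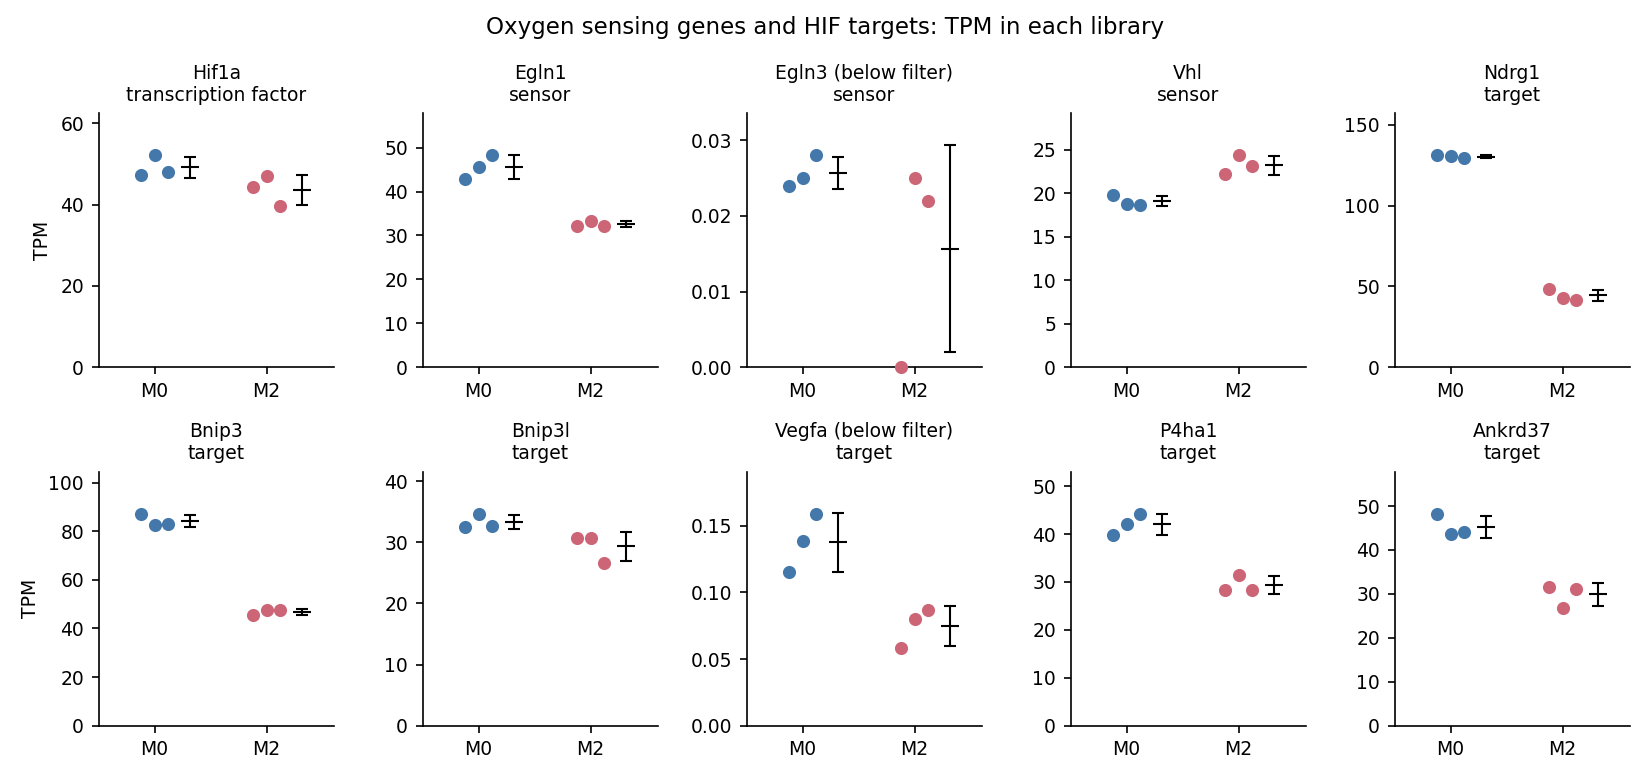
TPM (vertical axis, from 0, a separate scale per panel) of each of the 10 genes in the 3 M0 libraries (blue) and the 3 M2 libraries (red), replicates 1 to 3 from left to right, with black marks for the mean and SD. Ndrg1, Bnip3, Ankrd37, P4ha1 and Egln1 sit lower in every M2 library and Vhl sits higher, while Egln3 and Vegfa have scales that end far below 1 TPM.

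Hif1a encodes the oxygen-regulated subunit HIF-1alpha. Its transcript stood at 47.3, 52.1 and 48.0 TPM in M0 replicates 1, 2 and 3 and at 44.2, 47.0 and 39.7 TPM in M2. The groups did not overlap, but M0 replicate 1 and M2 replicate 2 were nearly level and M2 replicate 3 was the lowest. The log2 fold change was -0.17 (SE 0.074), which missed the threshold (adjusted p = 0.0955, limma). Without M2 replicate 3 it was -0.10 (adjusted p = 0.178). The call was made when M2 replicate 2 was left out (-0.22, adjusted p = 0.0496) and with limma-voom on recovered reads (adjusted p = 0.0482). In the authors' deposited table, which uses another transcript model, Hif1a had an adjusted p of 0.0899.

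Epas1, which encodes the other main oxygen-regulated subunit, HIF-2alpha, went from 20.9, 23.1 and 22.8 TPM in M0 to 30.4, 31.9 and 24.7 TPM in M2. All M2 libraries were higher, with M2 replicate 3 the nearest to M0. Epas1 rose by 0.36 on the log2 scale (SE 0.097, adjusted p = 0.0155, limma), and the call ended without M0 replicate 1 (adjusted p = 0.0618), without M2 replicate 1 (0.0505) and with no filter (0.124). With libraries left out in turn, its log2 fold change ran from 0.29 to 0.47. Arnt, the shared beta subunit, went the other way, from 15.2, 16.4 and 14.8 TPM to 12.5, 12.4 and 10.1 TPM. It fell by 0.38 (SE 0.095, adjusted p = 0.0107, limma), a call lost with no filter (adjusted p = 0.0773). Within each library, the level of Hif1a was 2.11 to 2.27 times that of Epas1 in M0 and 1.46 to 1.61 times in M2. Relative to Arnt it was 3.10 to 3.25 times in M0 and 3.53 to 3.94 times in M2. Neither shift in ratio was tested.

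Egln1 encodes PHD2, the main prolyl hydroxylase that marks HIF-1alpha in oxygen. It stood at 42.8, 45.5 and 48.2 TPM in M0 and at 32.1, 33.3 and 32.2 TPM in M2. The M2 libraries lay close together and all below M0. Egln1 fell by 0.47 on the log2 scale (SE 0.062, adjusted p = 4.48e-04, limma), with a mean 28.6% lower. Egln3, or PHD3, an isoform strongly induced by low oxygen in many cells, was all but undetected. It had 1, 1 and 1 reads in the M0 libraries and 0, 1 and 1 in the M2 libraries. Both sums are at or under the 3 reads that a count of 0 allows, so no fold is given.

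Egln2, or PHD1, stood at 18.8, 20.3 and 20.2 TPM in M0 and 20.2, 19.7 and 22.7 TPM in M2. The groups overlapped, and the log2 fold change of 0.08 (95% interval -0.09 to 0.25) did not pass (adjusted p = 0.441, limma). Egln1 was 2.24 to 2.39 times as abundant as Egln2 in M0 and 1.42 to 1.69 times in M2. The lead was narrower in every M2 library, a difference that was not tested.

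Vhl encodes the part of the ubiquitin ligase that recognises hydroxylated HIF alpha subunits. It went from 19.8, 18.8 and 18.7 TPM in M0 to 22.2, 24.4 and 23.2 TPM in M2. Every M2 library was above every M0 library. Vhl rose by 0.27 on the log2 scale (SE 0.066, adjusted p = 0.00994, limma), to a mean 1.22 times the M0 level. The ratio of Egln1 to Vhl transcripts was 2.17, 2.42 and 2.58 in M0 and 1.45, 1.37 and 1.39 in M2. This ratio was lower in every M2 library, a difference that was not tested. Cul2, the scaffold of the same ligase, stood at 19.1, 19.1 and 17.8 TPM in M0 against 21.6, 23.4 and 19.9 TPM in M2, short of the threshold (0.20, adjusted p = 0.0639). In 5 of 15 alternatives Cul2 passed, among them that without M2 replicate 3 (0.25, adjusted p = 0.00998).

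Among other control genes, Hif1an, the asparagine hydroxylase FIH that blocks coactivator binding, stood at 8.50, 10.6 and 10.4 TPM in M0 and 10.5, 11.1 and 7.90 TPM in M2, with overlapping groups (log2 fold change -0.01, 95% interval -0.31 to 0.29). Cited2, a HIF-induced protein that competes with HIF for its coactivators, rose from 43.3, 44.7 and 46.9 TPM to 56.6, 55.7 and 54.9 TPM (0.30, SE 0.056, adjusted p = 0.00245, limma). Of 17 listed genes for HIF subunits and their control, 15 were tested: 3 rose (Epas1, Cited2 and Vhl), 2 fell (Egln1 and Arnt) and 10 did not pass. These are 20% higher and 13.3% lower, at or under the 20.1% and 23.7% of all tested genes, and 1 fell with no filter. The median log2 fold change of the list was -0.01, beside -0.03 over all tested genes.

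**Figure D2:**
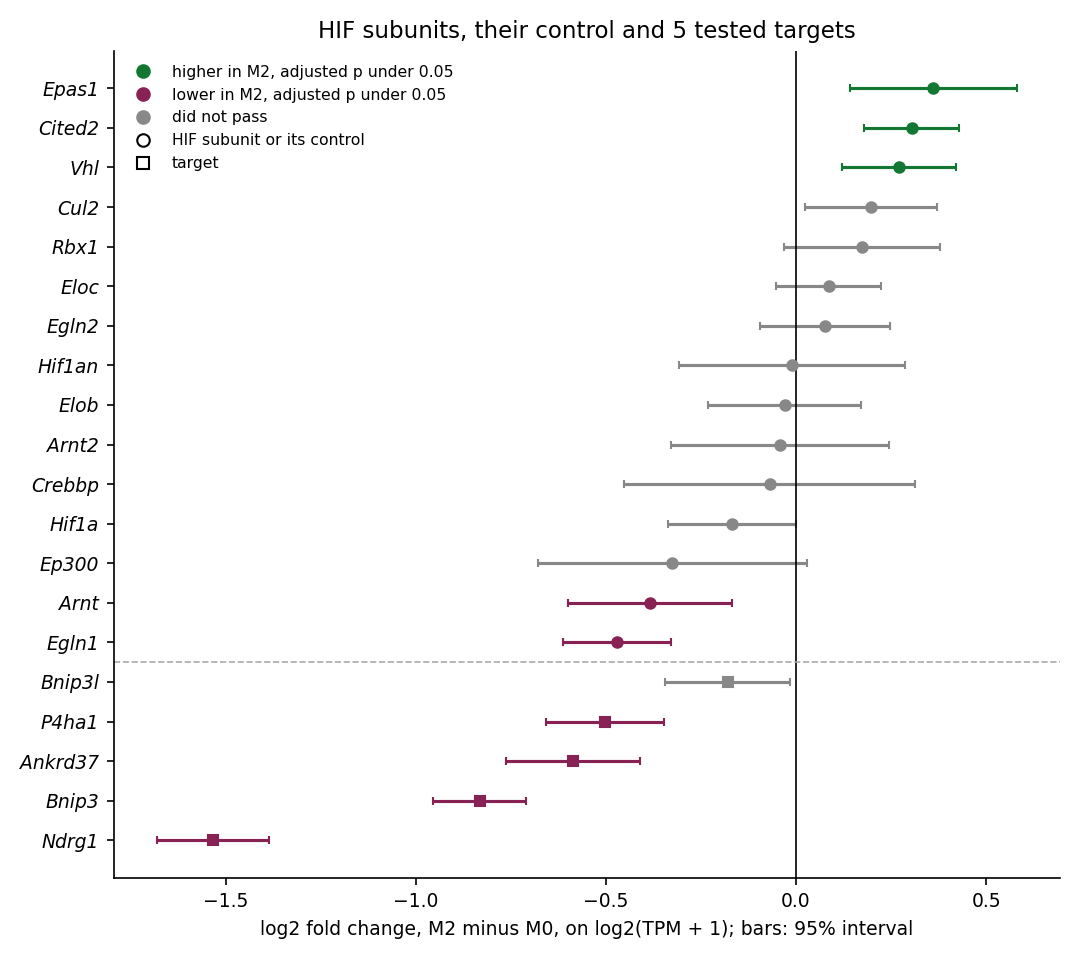
Log2 fold change of M2 against M0 on log2(TPM + 1) (horizontal axis) with 95% intervals, for 15 tested genes of the HIF subunits and their control (circles) and 5 tested targets (squares, below the dashed line). Green marks rose, purple marks fell and grey marks did not pass: the control genes lie on both sides of 0, from -0.47 for Egln1 to 0.36 for Epas1, and the targets lie between -1.53 for Ndrg1 and -0.18 for Bnip3l.

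Ndrg1, a stress-induced protein known as a suppressor of metastasis in several tumours, had the largest change of the 8 tested genes. It stood at 131, 130.5 and 129 TPM in M0 and at 48.5, 43.0 and 41.7 TPM in M2. The M0 libraries were almost level, and every M2 library was far below them. Ndrg1 fell by 1.53 on the log2 scale (SE 0.065, adjusted p = 1.28e-06, limma), 2.93-fold in mean TPM, and only 24 of the 11202 tested genes had a lower fold change. Of its family, Ndrg3 stood at 29.3, 25.98 and 25.5 TPM in M0 against 27.3, 26.1 and 24.9 TPM in M2, with overlapping groups (adjusted p = 0.662). Ndrg2 had 2 reads in all of M0 and 5 in all of M2, and Ndrg4 had 1 and 0. The level of Ndrg1 was 2.50 to 2.77 times that of Hif1a in M0 and 0.915 to 1.10 times in M2, so its lead was gone. The shift in ratio was not tested.

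Bnip3 and Bnip3l (NIX) are related receptors that mark mitochondria for removal by autophagy. Bnip3 stood at 87.1, 82.6 and 83.1 TPM in M0 and at 45.5, 47.7 and 47.5 TPM in M2. Both groups were tight, with a wide gap between them. Bnip3 fell by 0.83 on the log2 scale (SE 0.054, adjusted p = 1.08e-05, limma), 1.80-fold in mean TPM. Bnip3l stood at 32.5, 34.7 and 32.7 TPM in M0 and at 30.7, 30.7 and 26.6 TPM in M2. The M2 libraries were lower by little, apart from M2 replicate 3. The log2 fold change of Bnip3l was -0.18 (95% interval -0.34 to -0.02) and did not pass (adjusted p = 0.0726, limma). Without M2 replicate 3 it was -0.11 (adjusted p = 0.106), and it passed with limma-voom (0.0363) and with the length trend removed (0.0154). The ratio of Bnip3 to Bnip3l was 2.68, 2.38 and 2.54 in M0 and 1.48, 1.56 and 1.79 in M2. It was lower in every M2 library, a difference that was not tested.

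P4ha1 encodes a catalytic subunit of the collagen prolyl 4-hydroxylase, an oxygen-using enzyme of the endoplasmic reticulum. It stood at 39.8, 42.0 and 44.2 TPM in M0 and at 28.3, 31.5 and 28.4 TPM in M2. All M2 libraries lay well below M0. P4ha1 fell by 0.50 on the log2 scale (SE 0.068, adjusted p = 5.19e-04, limma), with a mean 30.1% lower.

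Ankrd37 encodes a small ankyrin-repeat protein and is part of many hypoxia expression signatures. It stood at 48.2, 43.7 and 44.0 TPM in M0 and at 31.6, 26.9 and 31.2 TPM in M2. M2 replicate 2 was the lowest, and the groups were well apart. Ankrd37 fell by 0.59 on the log2 scale (SE 0.078, adjusted p = 4.43e-04, limma), with a mean 34.1% lower. An exon of Ufsp2 on the other strand overlaps it by 57 bases. Ufsp2 had mean levels of 68.4 TPM in M0 against 63.9 TPM in M2. Without strand in the reads, both genes cannot be told apart there.

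Vegfa, the vessel growth factor and a classic HIF target, was barely detected. It had 0.115, 0.139 and 0.159 TPM in M0 and 0.0580, 0.0800 and 0.0870 TPM in M2, from 6, 7 and 7 reads against 3, 4 and 5. Every M2 library was lower, but at 20 against 12 reads the depth-scaled ratio was 0.555, with an exact 95% interval of 0.248 to 1.19 that covers counting error only. No difference was detectable at this depth. Of 10 listed VEGF ligands and receptors, 3 were tested. Besides Vegfa, 6 were below the filter and were not tested. Flt1, Pgf and Kdr had 24, 9 and 10 reads in M0 and 99, 19 and 12 in M2. Flt4 had 69 and 39, Vegfd 1 and 0, and Vegfc 0 and 0. Nrp1, a co-receptor of VEGF, fell from 94.3, 106 and 100.3 TPM to 52.3, 55.7 and 47.0 TPM (-0.95, adjusted p = 2.97e-05, limma). Vegfb stood at 32.4, 32.04 and 35.7 TPM and 30.7, 30.3 and 27.1 TPM and did not pass (adjusted p = 0.0770), nor did Nrp2 (adjusted p = 0.310), whose M2 replicate 3 alone was low, at 41.1 TPM against 63.0 to 70.1 TPM in M0.

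On the TPM scale, which allows for transcript length, the mean levels in M0 ran from Ndrg1 (130.3 ± 0.919, SD, n = 3) and Bnip3 (84.3 ± 2.48) through Hif1a (49.1 ± 2.59), Egln1 (45.5 ± 2.702), Ankrd37 (45.3 ± 2.53) and P4ha1 (42.0 ± 2.19) to Bnip3l (33.3 ± 1.17) and Vhl (19.1 ± 0.595). From Hif1a to P4ha1, each gene overlapped its neighbour in this order. In M2 the order began with Bnip3 (46.9 ± 1.25), Ndrg1 (44.4 ± 3.62) and Hif1a (43.7 ± 3.67), which overlapped. Egln1 (32.5 ± 0.673) followed, then Ankrd37 (29.9 ± 2.61), P4ha1 (29.4 ± 1.81) and Bnip3l (29.3 ± 2.36), which overlapped, and then Vhl (23.2 ± 1.08). The median log2 fold change was -0.59 over the 5 tested targets. That over Egln1 (-0.47) and Vhl (0.27) was -0.10, a midpoint of opposite changes that describes neither gene.

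Other listed HIF targets outside glycolysis were mostly lower. Of 35 listed, 26 were tested: 19 fell, 2 rose and 5 did not pass. The median log2 fold change was -0.40, and 73.1% fell, beside 23.7% of all tested genes. This list, like the other lists here, was drawn up with earlier results of these data known, so its share is no separate support. Plin2, a lipid droplet coat protein, fell from 189, 190.4 and 186 TPM to 141, 141 and 137 TPM (adjusted p = 2.05e-04, limma). The calls on the cytokine gene Mif (318 to 365 TPM to 254 to 308 TPM, adjusted p = 0.0345) and the mitochondrial gene Fam162a (120.0 to 134 TPM to 102 to 121 TPM, overlapping, adjusted p = 0.0366) were fragile. Mif did not pass in 8 of 15 alternatives, among them leaving out M0 replicate 1 (adjusted p = 0.113), M0 replicate 3 (0.117) and M2 replicate 2 (0.0872). Fam162a did not pass in 9 of 15, among them leaving out M0 replicate 1 (adjusted p = 0.124), M0 replicate 3 (0.102), M2 replicate 1 (0.105) and M2 replicate 2 (0.105).

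The 2 that rose were Tfrc and Angptl4. Tfrc, the transferrin receptor that takes up iron, went from 90.5, 94.99 and 90.6 TPM to 273, 309 and 232 TPM (1.54, adjusted p = 8.66e-06, limma). Angptl4, an inhibitor of lipoprotein lipase, went from 7.11, 7.07 and 6.58 TPM to 12.4, 12.3 and 12.5 TPM (0.76, adjusted p = 9.06e-05). In both, every M2 library was above every M0 library. Among the lowest fold changes of the list, in genes chosen after their values were seen, were those of the mTORC1 inhibitor Ddit4 (-1.998), the chemokine receptor Cxcr4 (-1.52) and the heme oxygenase Hmox1 (-1.11), each with an adjusted p of at most 7.57e-06 by limma.

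**Figure D3:**
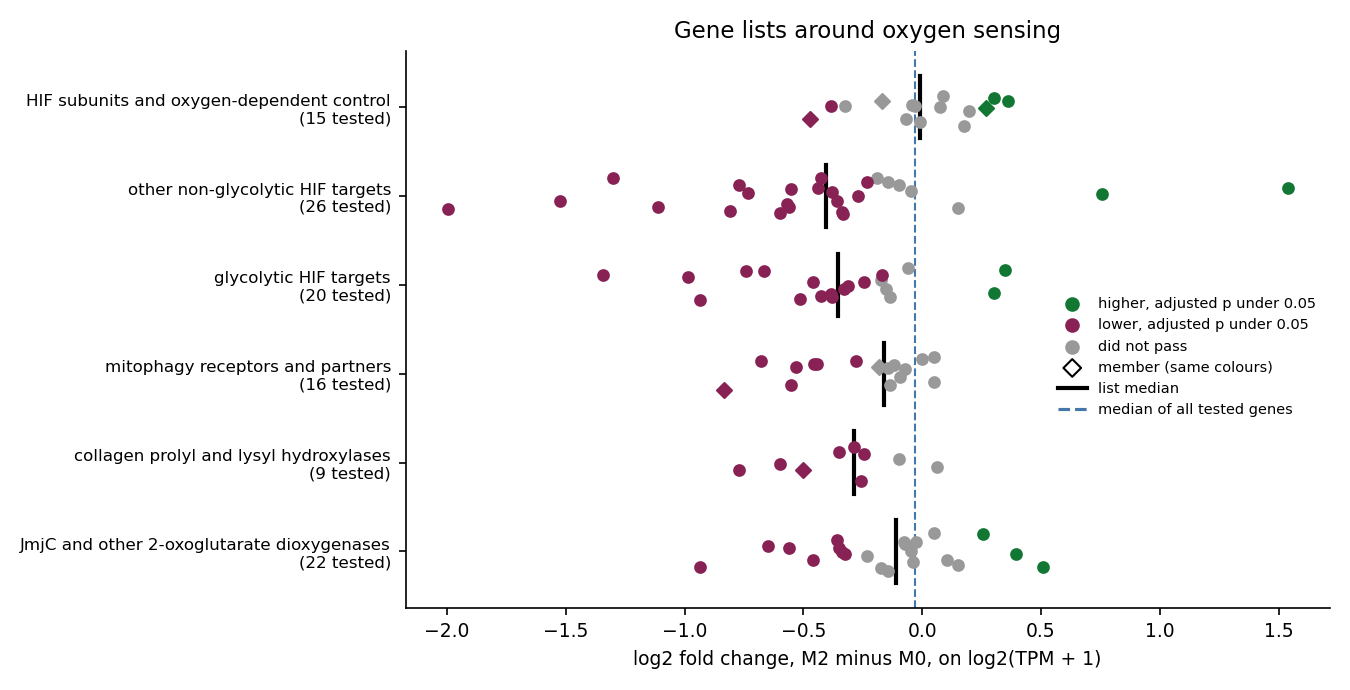
Log2 fold change of M2 against M0 on log2(TPM + 1) (horizontal axis) for each tested gene of 6 lists (vertical scatter within a list has no meaning). Diamonds are genes among the 10 members, colours give the call, black bars are list medians and the dashed line is the median of all tested genes: the HIF control list centres at -0.01 and the lists of non-glycolytic and glycolytic targets at -0.40 and -0.35.

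Glycolytic HIF targets had a median log2 fold change of -0.35: of 20 tested, 14 fell, 2 rose and 4 did not pass. The share that fell was 70%, beside 23.7% of all tested genes. Aldoa, an aldolase, fell from 1782 to 1826 TPM to 1349 to 1418 TPM (adjusted p = 0.00109, limma). Pkm, the pyruvate kinase, fell by 0.25 (adjusted p = 0.0144) and did not pass without M0 replicate 2 (0.0834) or M0 replicate 3 (0.0608), with median-ratio scaling (0.0930) or with no filter (0.116). Ldha, lactate dehydrogenase A (adjusted p = 0.472), and Tpi1, triosephosphate isomerase (adjusted p = 0.0516), did not pass, though Tpi1 passed in 3 of 15 alternatives, among them without M2 replicate 3 (0.0252). The 2 that rose were Pfkfb3 and Pfkfb4, which make an activator of phosphofructokinase. Leaving out M0 replicate 1, 2 or 3 or M2 replicate 1 or 2 gave 1, 1, 0, 0 and 1 genes that rose by limma, and no filter gave 0.

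Among 16 tested mitophagy receptors and partners, which include Bnip3 and Bnip3l, 7 fell, 9 did not pass and none rose at an adjusted p under 0.05 by limma. The share that fell was 43.8%, beside 23.7% of all tested genes, and the median was -0.16. Sqstm1 (p62), a cargo receptor of autophagy, fell from 186, 199 and 195 TPM to 119.9, 118 and 124 TPM (adjusted p = 2.67e-05, limma). The most abundant of the list, Phb2 (adjusted p = 0.499), Fkbp8 (0.0713) and Gabarap (0.280), did not pass, though Fkbp8 passed without M2 replicate 3 (0.0174).

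Of 9 tested genes for collagen prolyl and lysyl hydroxylases and their partners, P4ha1 among them, 7 fell. That is 77.8%, beside 23.7% of all tested genes, and the median was -0.29. P4hb, the beta subunit of the P4ha1 enzyme, fell from 459, 489 and 491 TPM to 389, 409.9 and 379 TPM (adjusted p = 0.00404, limma). Plod3, a lysyl hydroxylase, fell from 46.6, 49.0 and 47.3 TPM to 38.9, 38.3 and 34.3 TPM (adjusted p = 0.00270). P4ha2, the other catalytic subunit above the filter, was named after its values were seen and is also in the list of other targets. It fell from 29.9, 30.1 and 29.1 TPM to 17.6, 17.1 and 16.3 TPM (adjusted p = 3.41e-05). Plod1 (adjusted p = 0.253) and Crtap (0.440) did not pass. Plod1 and Plod2, the latter of which fell, are likewise in the list of other targets.

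Other dioxygenases that, like the EGLN enzymes, use oxygen and 2-oxoglutarate went both ways. Kdm3a and Kdm4b, which fell, and Kdm4c, which did not pass, are also in the list of other HIF targets. Of 22 tested, 8 fell, 3 rose and 11 did not pass, with a median of -0.11. The shares were 36.4% lower and 13.6% higher, beside 23.7% and 20.1% of all tested genes. With no filter 2 fell and 1 rose. Leaving out M0 replicate 2 or M0 replicate 3 gave 5 that fell in each case. Alkbh5, an RNA demethylase, fell from 33.9, 41.3 and 41.1 TPM to 28.7, 30.5 and 24.5 TPM (adjusted p = 0.00640, limma; 0.0862 with no filter), while Jmjd6 (46.0, 43.1 and 46.5 TPM against 44.2, 46.7 and 42.2 TPM) did not pass (adjusted p = 0.763). The 3 that rose were Riox1, Kdm8 and Jmjd1c. Riox1 went from 37.0, 37.2 and 41.3 TPM to 47.6, 46.6 and 44.3 TPM (adjusted p = 0.0119) and did not pass without M0 replicate 2 (0.0564) or with no filter (0.0523). Jmjd1c went from 22.9, 28.6 and 27.0 TPM to 42.1, 43.2 and 29.0 TPM (adjusted p = 0.0205) and did not pass without M0 replicate 1 (0.0794), M2 replicate 1 (0.0642) or M2 replicate 2 (0.0617), or with no filter (0.194). With libraries left out in turn, the log2 fold change of Jmjd1c ran from 0.41 to 0.69. Kdm8 had low levels, 1.28 to 1.54 TPM in M0 and 2.04 to 2.20 TPM in M2 (adjusted p = 0.0118).

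Likeness to a member was measured as the root mean square difference of log2(TPM + 1) over the 6 libraries, each gene centred on its M0 mean. The genes most like Ndrg1 were Ccng2 (0.03), an atypical cyclin, Cx3cr1 (0.07), the fractalkine receptor, and Sntb2 (0.07), a syntrophin. Ccng2 stood at 36.9, 37.8 and 37.7 TPM in M0 and 13.0, 11.4 and 11.5 TPM in M2. Among the genes most like Hif1a were Cox15 (0.01) and Pja2 (0.02), neither of which passed (adjusted p = 0.132 and 0.161 by limma).

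**Figure D4:**
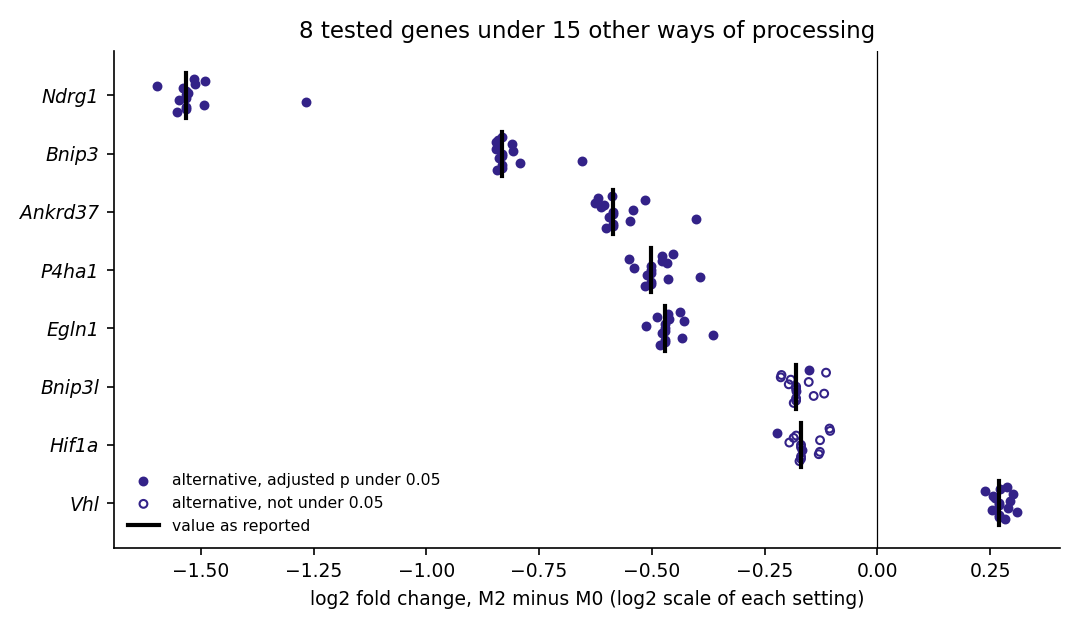
Log2 fold change of M2 against M0 (horizontal axis, on the log2 scale of each setting) for the 8 tested genes under 15 other ways of processing (points, filled where the adjusted p was under 0.05) beside the reported value (black bar). Ndrg1, Bnip3, Ankrd37, P4ha1, Egln1 and Vhl are filled in all 15, and Bnip3l and Hif1a in 2 each.

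In the authors' deposited table the adjusted p was under 0.05 for 6 members, the same 6 as here and with the same signs. The log2 fold changes in the authors' deposited table were -1.51 for Ndrg1, -0.81 for Bnip3, -0.56 for Ankrd37, -0.48 for P4ha1, -0.44 for Egln1 and 0.33 for Vhl. The authors' models behind the TPM values of these 6 genes differ in length from those behind these fold changes, and P4ha1 has another transcript. On mm10 the TPM models lie on chromosome 15, 66929318 to 66969641, minus strand (Ndrg1) and chromosome 7, 138890836 to 138909506, minus strand (Bnip3). Those of Ankrd37 and Egln1 lie on chromosome 8, at 45996908 to 45999850 and 124908587 to 124949254, both minus strand. Those of P4ha1 and Vhl lie on the plus strand, on chromosome 10, 59323296 to 59373304, and chromosome 6, 113623994 to 113631634. All 6 are protein-coding genes in GENCODE M21. Exons of antisense genes overlap those of Ndrg1, Bnip3 and Hif1a, and reads from the 2 strands cannot be told apart in libraries of a kit that does not mark strand.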

How the data were processed

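The authors deposited TPM values for 25124 genes, with 1 transcript model each, for 3 M0 and 3 M2 libraries, grouped here by title. A second table that the authors deposited holds library values, taken from their range to be on a log2 scale, with log2 fold changes (positive for M2 above M0), p-values and adjusted p-values. Per the submitters' processing notes, STAR 2.7.5a, HOMER 4.11.1, DESeq2 and mm10 were used, with no step named. Genes at 1 TPM or more in 3 or more libraries were fitted by group with limma 3.58.1 (R 4.3.3) on log2(TPM + 1), which understates changes of low genes, with a variance trend and Benjamini-Hochberg adjustment over 11202 genes. A call is an adjusted p under 0.05, and folds are ratios of mean TPM. Whole reads were recovered from steps in TPM times model length: 100% of values fine enough to tell were within 0.1 read of a whole number. No pair of libraries was a duplicate. The fit was run on simulated data in which the changed genes were few, well counted and had larger changes than most members here. That run does not show how well smaller changes are found.

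Named were all members, the control genes and, from other lists (13 lists in all), the 4 most abundant tested genes and any gene completing a count of 5 or fewer; a few genes are not reported here. Members and lists were chosen with earlier results of these data known. The other VEGF genes below the filter were named after their values were seen. The labels do not say that replicates are separate cultures, and p-values then measure the spread between libraries, perhaps a technical one. Alternatives were a pseudocount of 0.1, 2 other filters, median-ratio scaling, the authors' values, limma-voom on recovered reads, no variance trend, a replicate block, each library left out and, added after seeing the data, removal of the length trend. Promoters are from RefSeq on GRCm38.p6, the assembly mm10 names.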

Additional observations from a re-analysis of the deposited data

How the results depend on the processing

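The 6 calls among the members, 5 lower and 1 higher, held under all 15 alternatives. Log2 fold changes ran from -1.60 to -1.27 for Ndrg1, -0.85 to -0.65 for Bnip3, -0.63 to -0.40 for Ankrd37, -0.55 to -0.39 for P4ha1, -0.51 to -0.37 for Egln1 and 0.24 to 0.31 for Vhl. The median over targets was -0.40 on the authors' values. With no filter Egln3 entered, at 3 reads in M0 and 2 in M2. The median over Egln1, Egln3 and Vhl was then the value of Egln3 itself, -0.014. That value is held near 0 by the 1 added to TPM and is no measure of change. Over all genes, 3556 to 5694 passed with libraries left out in turn, against 4899, and 3323 with no filter. Values near 0 changed sign. Hif1an was 0.026 with median-ratio scaling, 0.022 on the authors' values, 0.096 with the length trend removed and -0.10 to 0.12 with libraries left out. Ndrg3 was 0.0064 on the authors' values and -0.080 to 0.018 with libraries left out. Jmjd6 was 0.014 with median-ratio scaling, 0.0083 on the authors' values and -0.062 to 0.0088 with libraries left out. Nrp2 was -0.33 to 0.012 with libraries left out, above 0 only without M2 replicate 3. The cause was not tested. Depth limits Egln3 and Vegfa, with at most 7 reads in any library. With the replicate number as a block, 4870 genes passed and no member's call changed. Libraries of the same number correlated at -0.033, 0.21 and 0.029 in their deviations from group means, so the numbers were not taken as pairs, and M0 replicate 1 correlated best with M2 replicate 3 (0.17).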
